A study of Rattus norvegicus with 18 samples.

Results

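The family of miR-221 and miR-222 was examined in the gastrocnemius muscle, a mixed-fibre muscle of the hind limb, of male Brown Norway rats. Every entry of the count table named miR-221 or miR-222, on either arm of its hairpin, was taken, which gave 4 entries, rno-miR-221-3p, rno-miR-221-5p, rno-miR-222-3p and rno-miR-222-5p, of 909 entries in all (763 known miRNAs and 146 predicted candidates). Small RNA was sequenced from 3 groups of 6 rats. The young AL group had free access to food and was 6 months old, the old AL group had free access to food and was 28 months old, and the old CR group was 28 months old and on caloric restriction. The old CR rats ate 55% of the ad libitum ration from 2 months of age, when all rats were assigned to a diet. The diet comparison is between the old groups only, since no calorically restricted young rats are among these samples. The study asked which miRNAs change in muscle with age and how far caloric restriction reverses this.

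miR-221 and miR-222 are paralogous miRNAs that are processed from neighbouring hairpins on the X chromosome. They are known to repress Cdkn1b, an inhibitor of cyclin-dependent kinases, and so to favour proliferation. In cultured myoblasts their levels are known to fall as the cells leave the cell cycle and differentiate, and they are also well known in endothelial and vascular smooth muscle cells. Adult muscle is mostly made of fibres that no longer divide, so a whole-muscle level is an average over fibres, satellite cells, vessels and other cells. In such bulk samples fewer cells of a type and less RNA per cell cannot be told apart.

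The mature sequences are shown because they define what could be counted for each entry and which entries can share targets. They were taken from RefSeq (rat assembly GRCr8), in which all 4 entries were matched, and are written 5′ to 3′ with the seed, bases 2 to 8, in capitals.
rno-miR-221-3p: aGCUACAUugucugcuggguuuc
rno-miR-222-3p: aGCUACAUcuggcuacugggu
rno-miR-221-5p: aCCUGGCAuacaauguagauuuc
rno-miR-222-5p: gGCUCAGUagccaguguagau
The 3p miRNAs shared the seed and their first 8 bases, and of 693 distinct mature rat miRNAs in the reference only these 2 carried that seed. After base 8 their sequences parted. The 5p miRNAs had different seeds, which no other mature miRNA of the reference carried, and shared a run of 7 bases near their 3′ ends. No entry of the table had the same counts as miR-221-3p, miR-222-3p or miR-221-5p in every library (within 10% or 2 counts). miR-222-5p matched 3 other sparse entries, through the allowance of 2 counts alone.

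The hairpins show how the arms are placed, with the mature miRNAs in capitals. Mir221 is 109 bases long and lies at chrX:6023182-6023290 on the plus strand of GRCr8, and Mir222 is 103 bases long and lies at chrX:6022621-6022723 on the same strand.
Mir221: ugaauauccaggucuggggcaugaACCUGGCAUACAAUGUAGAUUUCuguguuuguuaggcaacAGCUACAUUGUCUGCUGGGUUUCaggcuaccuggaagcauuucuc
Mir222: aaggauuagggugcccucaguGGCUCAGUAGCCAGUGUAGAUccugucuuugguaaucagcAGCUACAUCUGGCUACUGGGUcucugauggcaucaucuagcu
Both hairpins overlap the annotated long non-coding RNA genes LOC120099382 and LOC120099384. These coordinates belong to the reference sequences and not to the counts, which were made on Rnor_6.0.

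The libraries held 34940346 to 83110905 assigned counts, and entries of the miR-1 family, the miRNAs that mark striated muscle, took 60.7% to 86.8% of them. Levels are therefore given as CPM, counts per 1000000 assigned counts of the library, scaled with TMM factors, which set libraries on a common scale from the bulk of the entries. Among the factors 0.639 was the lowest and 2.14 the highest, both of old AL libraries (replicates 11 and 7). Striated muscle markers other than miR-1b (15 entries such as miR-1, miR-133a and miR-206) summed to at least 84617 CPM in every library, above the sums of the endothelial, smooth muscle, leukocyte, erythroid, fibroblast, liver and neural lists. Some of these entries had nearly the same level, such as miR-133a-3p and miR-133c (16978 and 16783 CPM on average in old AL). The highest total of assigned counts also exceeded every number of mapped reads that the paper lists. A read may thus stand under several entries, and the miR-1 share and these sums are of counts and not of reads.

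Both 3p arms were present in every library at a moderate level. miR-221-3p averaged 17.4 ± 4.32 CPM (SD, n = 18) and ranked 145 of 763 known miRNAs, and miR-222-3p averaged 8.25 ± 2.71 CPM and ranked 179. miR-221-5p averaged 1.59 ± 0.406 CPM and ranked 276. miR-222-5p, the passenger arm of Mir222, had 0 to 4 counts per library and ranked 579. Of the 32064 counts of the family, miR-221-3p took 63.8%, miR-222-3p 30.4%, miR-221-5p 5.81% and miR-222-5p 0.0811%.

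miR-221-3p was highest on average in old AL, lower in old CR and lowest in young AL, with groups that overlapped. In young AL its level ran from 9.28 through a median of 15.8 to 18.5 CPM (mean 14.6 ± 3.67, SD, n = 6). In old AL it ran from 15.1 through 20.7 to 25.4 CPM (mean 20.3 ± 3.64). In old CR it ran from 13.2 through 15.7 to 24.1 CPM (mean 17.3 ± 4.15). Of the old AL libraries 4 of 6 lay above every young AL library and 5 of 6 above the young AL median. Of the old CR libraries 2 of 6 lay above every young AL library and 3 of 6 above the young AL median. The median of old CR, unlike its mean, was not above that of young AL.

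miR-222-3p had the same order of group means. In young AL its level ran from 3.45 through a median of 7.80 to 8.42 CPM (mean 6.67 ± 2.21, SD, n = 6). In old AL it ran from 7.57 through 8.96 to 13.7 CPM (mean 9.69 ± 2.39). In old CR it ran from 5.73 through 7.51 to 13.8 CPM (mean 8.38 ± 2.98). The highest old AL and old CR libraries, replicates 7 and 15, were also the highest of their groups for miR-221-3p. Of the old AL libraries 3 of 6 lay above every young AL library and 4 of 6 above the young AL median. Of the old CR libraries 2 of 6 lay above every young AL library and 3 of 6 above the young AL median, and the old CR median was below that of young AL.

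miR-221-5p had nearly the same mean in both old groups. In young AL its level ran from 0.539 through a median of 1.30 to 2.10 CPM (mean 1.35 ± 0.547, SD, n = 6). In old AL it ran from 1.42 through 1.65 to 2.22 CPM (mean 1.74 ± 0.305). In old CR it ran from 1.51 through 1.57 to 2.12 CPM (mean 1.70 ± 0.242). All 6 libraries of each old group lay above the young AL median, but only 1 of 6 in each lay above every young AL library.

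miR-222-5p was at the edge of detection. Its counts summed to 6 for young AL, 13 for old AL and 7 for old CR, and it had no count in 3 of 6, 0 of 6 and 2 of 6 libraries. A count of 0 allows up to 3 counts in a library. At this depth only a large difference in this arm could have been detected, none was, and no fold change is given.

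**Figure D1:**
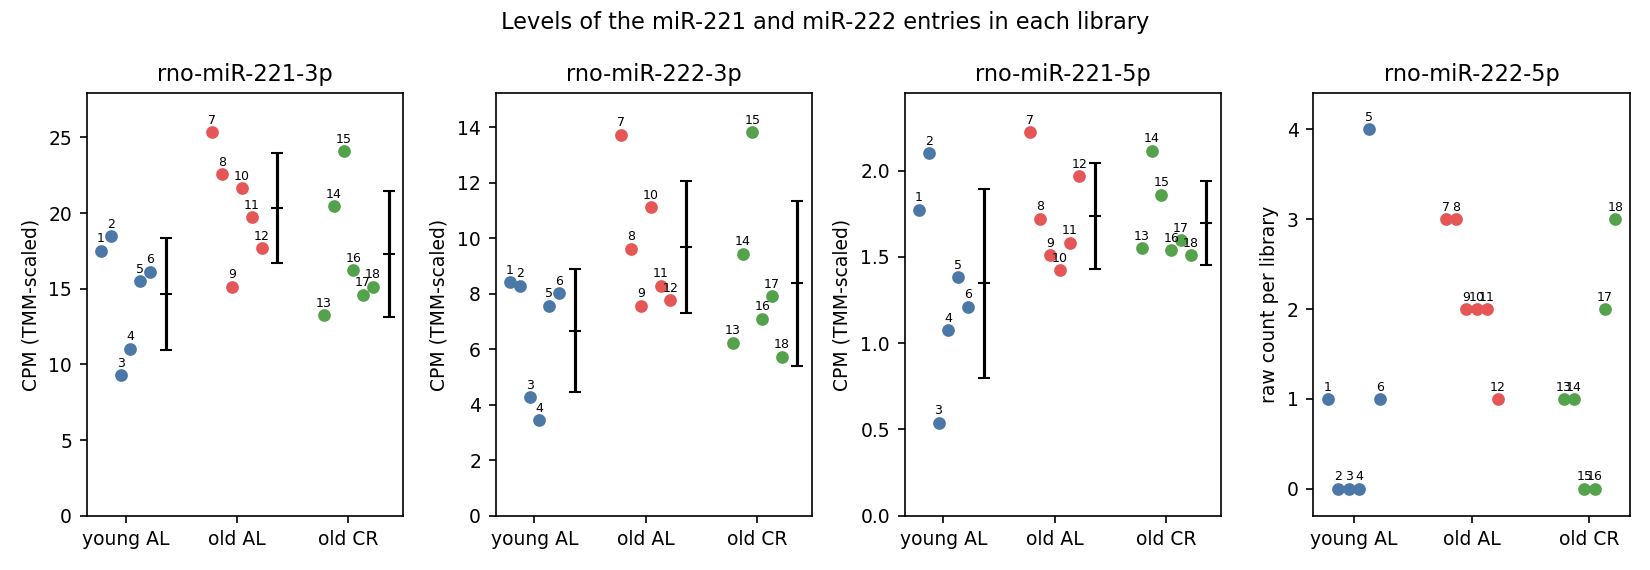
Level of each miR-221 and miR-222 entry in each library (points, labelled by replicate) by group, in TMM-scaled CPM for 3 entries and in raw counts for miR-222-5p. The bars beside the points are the mean ± SD over 6 libraries. The groups overlap in every panel, young AL replicates 3 and 4 are the lowest libraries for both 3p arms, and old AL replicate 7 is the highest for miR-221-3p and miR-221-5p.

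None of the 4 members was differentially expressed between young AL and old AL. By edgeR's quasi-likelihood test miR-221-3p was 0.46 higher in old AL as a log2 fold change (SE 0.199, 95% interval 0.03 to 0.89), with an unadjusted p of 0.0391 and a Benjamini-Hochberg adjusted p of 0.192. miR-222-3p was 0.52 higher (SE 0.261, 95% interval -0.05 to 1.09, edgeR adjusted p = 0.249) and miR-221-5p 0.35 higher (SE 0.280, 95% interval -0.26 to 0.96, adjusted p = 0.491). A call required both a 1.5-fold change and an adjusted p no greater than 0.05, and 0 of 4 members were called where 3.28% of all 732 entries tested were. An unadjusted p under 0.05 was reached by 1 of 4 members against 23.4% of all entries, and all 4 members, the sparse miR-222-5p included, had a log2 fold change above 0 against 56.6% of all entries. The members come from neighbouring hairpins and the 3p arms varied together, so their signs, here and in the other comparisons, are not separate observations. No member had groups that did not overlap, which 3.55% of entries had. DESeq2, the tool of the study, also called 0 of 4, where it called 84 of all 732 entries. Its adjusted p was 0.1003 for miR-221-3p and 0.163 for miR-222-3p, both at unadjusted p under 0.05. How many of all entries reached that unadjusted p by DESeq2 was not counted.

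The size of this difference changed with the young libraries used. Young AL replicates 3 and 4 were the lowest for both 3p arms and had the fewest assigned counts (34940346 and 40785602). With both left out, an alternative chosen after the counts were seen and bound to lower the difference because they were the lowest, the log2 difference between old AL and young AL was 0.24 for miR-221-3p (edgeR adjusted p = 0.429), 0.23 for miR-222-3p (adjusted p = 0.549) and 0.08 for miR-221-5p (adjusted p = 0.919). Young AL replicates 1 and 2, whose library numbers stand apart in the labels, were the highest young AL libraries for all 3 entries. Leaving both out was therefore bound to raise the difference, which became 0.65, 0.72 and 0.72, with edgeR adjusted p of 0.142, 0.219 and 0.187. Old AL replicate 7, which had the lowest miR-1 share and the highest TMM factor, was the highest old AL library for all 3 entries, and without it miR-221-3p was 0.39 higher (edgeR adjusted p = 0.239). The part of depth or of the miR-1 share in these values was not tested.

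No member was differentially expressed between young AL and old CR. miR-221-3p was 0.23 higher in old CR on the log2 scale (SE 0.210, 95% interval -0.22 to 0.69, edgeR adjusted p = 0.562). miR-222-3p was 0.32 higher (SE 0.283, 95% interval -0.29 to 0.94, adjusted p = 0.557), and miR-221-5p 0.32 higher (SE 0.274, 95% interval -0.27 to 0.92, adjusted p = 0.535). Here 0 of 4 members were called against 9.32% of all 730 entries, and 0 of 4 had an edgeR unadjusted p under 0.05 against 25.5%. All 4 had log2 fold changes above 0, as 55.8% of entries did, and no member had groups that did not overlap (5.75% of entries). Without young AL replicates 3 and 4 the differences were 0.03, 0.05 and 0.07, in the order given. Without young AL replicates 1 and 2 they were 0.42, 0.52 and 0.70, with edgeR adjusted p of 0.318, 0.387 and 0.165. Without old CR replicate 15, the highest of its group, those of the 3p arms were 0.12 and 0.13. This comparison shares its young AL libraries with the one before, so the same direction in both is not independent.

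Between old CR and old AL no member differed by more than the spread between libraries. The log2 difference, old CR minus old AL, was -0.23 for miR-221-3p (SE 0.182, 95% interval -0.62 to 0.17, edgeR adjusted p = 0.664). It was -0.20 for miR-222-3p (SE 0.239, 95% interval -0.72 to 0.32, adjusted p = 0.812) and -0.03 for miR-221-5p (SE 0.165, 95% interval -0.39 to 0.33, adjusted p = 0.987). Without old CR replicate 15 the differences of miR-221-3p and miR-222-3p were -0.35 and -0.41 (edgeR adjusted p of 0.376 and 0.387), and without old AL replicate 7 they were -0.16 and -0.08 (adjusted p of 0.792 and 0.958). In this comparison 0 of 4 members were called against 0.272% of all 736 entries, and 0 of 4 had an edgeR unadjusted p under 0.05 against 12.0%. None of the 4 had a log2 fold change above 0, against 50.7% of entries, and no member had groups that did not overlap (0.543% of entries). For miR-221-3p and miR-222-3p alike, 3 of 6 old CR libraries lay below every old AL library, and 1 of 6 lay above every old AL library for miR-222-3p. In this fit the intervals leave room for a 1.5-fold decrease of either 3p arm under CR, but not of miR-221-5p. Scaled by library totals alone, the miR-221-5p difference was -0.36 (SE 0.390), which leaves room for such a decrease too.

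**Figure D2:**
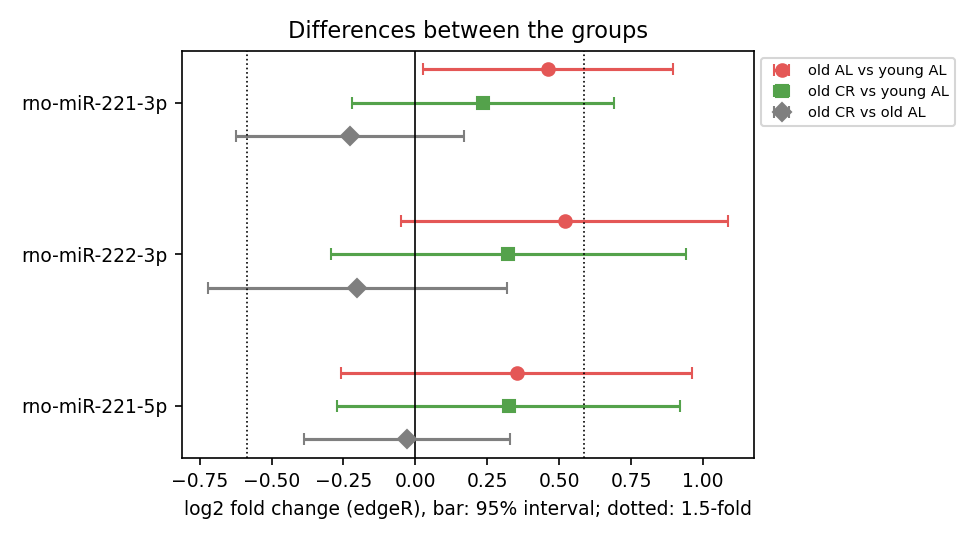
Log2 fold change of miR-221-3p, miR-222-3p and miR-221-5p in the 3 comparisons from edgeR (horizontal axis), with 95% intervals as bars, a line at 0 and dotted lines at a 1.5-fold change either way. Only the interval of miR-221-3p in old AL against young AL lies wholly on one side of 0, from 0.03 to 0.89.

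The proportion of the Mir221 arms did not differ between groups beyond the spread of the libraries. The log2 ratio of miR-221-3p to miR-221-5p counts, which does not depend on how libraries are scaled, was 3.51 ± 0.339 in young AL (SD, n = 6). It was 3.54 ± 0.273 for the old AL libraries and 3.32 ± 0.208 for the old CR libraries. As a fold, the guide arm was 11.4, 11.6 and 10.0 times the passenger arm. The lowest p of its 3 comparisons was 0.145 (old CR against old AL, difference -0.22, SE 0.140, two-sided exact permutation test, adjusted p = 0.838). For Mir222 the passenger arm took 26 of 9760 counts of both arms, or 0.266% (95% Wilson interval 0.182% to 0.390%, counting error only), against 8.35% (7.99% to 8.72%) for Mir221.

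The same held for the 3p arms of the paralogs. miR-221-3p exceeded miR-222-3p in every library, with log2 ratios of 1.17 ± 0.252 (SD, n = 6) for young AL, 1.08 ± 0.155 for old AL and 1.08 ± 0.216 for old CR, or 2.25, 2.12 and 2.11 times. The differences were -0.09 (SE 0.121) in old AL and -0.09 (SE 0.135) in old CR against young AL, and -0.01 (SE 0.108) between the old groups, with exact permutation p of 0.558, 0.524 and 0.965. Over the 9 ratio tests, those of miR-222-5p included, no adjusted p was below 0.838, where 924 arrangements of 6 against 6 libraries allow a p as low as 0.00216. Adapter ligation favours some small RNAs over others, so these ratios are of reads and not of molecules.

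**Figure D3:**
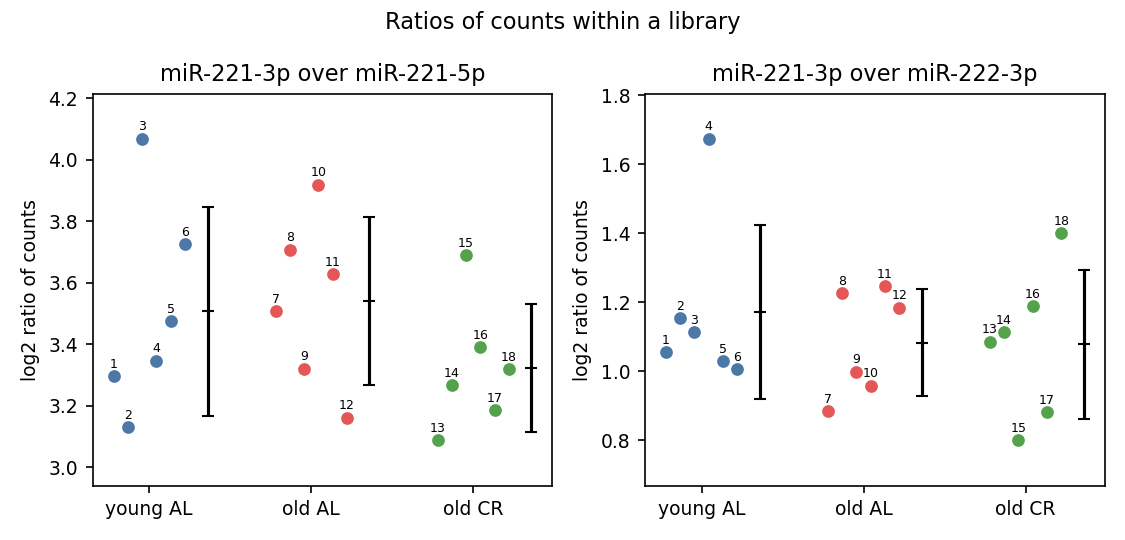
Log2 ratio of raw counts within each library (points, labelled by replicate) for miR-221-3p over miR-221-5p and for miR-221-3p over miR-222-3p, by group, with the mean ± SD over 6 libraries. Groups overlap in both panels, and young AL replicate 4 has the highest ratio of miR-221-3p to miR-222-3p at 1.67.

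Across libraries the levels of the 3p arms varied together. Over 18 libraries the log2 CPM of miR-221-3p and miR-222-3p had a Pearson r of 0.93 (permutation p = 2e-05, the smallest that the resamples can give, adjusted p = 6e-05) and a Spearman rho of 0.92 (permutation p = 2e-05, adjusted p = 6e-05). It was 0.90 without young AL replicates 3 and 4, the 2 libraries farthest from the median, and 0.91 with group means removed. Within young AL, old AL and old CR r was 0.92, 0.89 and 0.91, over 6 libraries each.

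miR-221-3p and its own passenger arm were less closely related. Pearson r was 0.80 over 18 libraries (permutation p = 0.00024, adjusted p = 0.00036) and rho 0.68 (permutation p = 0.00232, adjusted p = 0.00348), but r fell to 0.56 without young AL replicates 3 and 4. Within groups r was 0.93 for young AL, 0.44 for old AL and 0.80 for old CR. For miR-222-3p and its sparse passenger arm r was 0.23 (permutation p = 0.358, adjusted p = 0.358) and rho 0.16 (permutation p and adjusted p both 0.53), and r was -0.17 without the same 2 libraries. The CPM of miR-222-5p lay far below the 0.5 added before the logarithm, so this r can show little either way. With library totals it was 0.53 (permutation p = 0.0258). These 3 pairs were the family tested, and the libraries share their scaling.

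**Figure D4:**
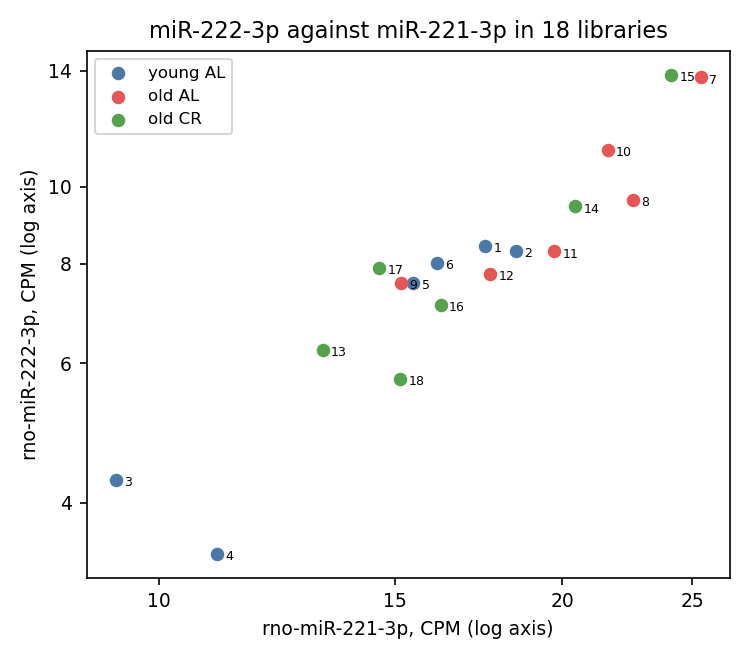
CPM of miR-222-3p (vertical, log axis) against CPM of miR-221-3p (horizontal, log axis) in 18 libraries, coloured by group and labelled by replicate. The 2 levels rise together over the libraries of all 3 groups, with young AL replicates 3 and 4 at the lower end and old AL replicate 7 and old CR replicate 15 at the upper end. Young AL replicate 4 lies below the trend of the others, with the highest ratio of miR-221-3p to miR-222-3p.

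Of 318 other known miRNAs with at least 1 CPM on average, miR-674-5p had the level most like both 3p arms over the 18 libraries, with a Spearman rho of 0.89 with miR-221-3p and 0.79 with miR-222-3p, against 0.92 between the 3p arms themselves. The next for miR-221-3p were miR-125a-3p (0.77), miR-140-3p (0.72), miR-99b-5p (0.69) and let-7b-5p (0.68). For miR-222-3p they were miR-125a-3p (0.78), miR-125a-5p (0.69), miR-99b-5p (0.68) and miR-351-5p (0.68), so that 3 of 5 names were shared. The median rho over the 318 was 0.04 and -0.02. These values describe how levels varied together, and the names depend on the measure: by Pearson r, 4 of 5 and 2 of 5 were the same.

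Other miRNAs with a known part in myoblasts or satellite cells were taken as a list of 45 entries, chosen with earlier results of these data known. Old AL against young AL gave 1 upregulated and 1 downregulated entry of 42 tested, where 3.28% of all entries were called, with a median log2 fold change of 0.05 beside 0.06 over all entries. miR-31a-5p, which represses Myf5 in quiescent satellite cells, rose by 3.56 (SE 0.543, edgeR adjusted p = 0.00383) from 0.0645 ± 0.0414 to 0.763 ± 0.482 CPM. Its young AL level was near the edge of detection, which makes the size of this change uncertain. miR-24-1-5p, the passenger arm of a miR-24 hairpin, fell by 0.73 (SE 0.171, edgeR adjusted p = 0.0376) from 14.5 ± 3.37 to 8.71 ± 1.67 CPM, and whether its reads were separated from those of the other miR-24 hairpin is not stated. The most abundant entries of the list were not called: the log2 difference was -0.21 for miR-1-3p, which promotes differentiation (edgeR adjusted p = 0.735), 0.12 for miR-133a-3p, which favours proliferation (0.873), and 0.03 for miR-26a-5p, which represses Ezh2 (0.955).

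In old CR against young AL 1 of 43 tested entries of the list was upregulated, again miR-31a-5p (4.62, SE 0.749, edgeR adjusted p = 0.00377), where 9.32% of all entries were called, with a median of -0.09 beside 0.08 over all entries. The old CR level of miR-31a-5p was 1.62 ± 2.03 CPM, with an SD above the mean, so its libraries were uneven. In old CR against old AL 0 of 43 were called by edgeR, with 3 at an unadjusted p under 0.05, which 12.0% of all entries had, and a median of -0.02 beside 0.01. miR-221-3p and miR-222-3p lay above the list's median in both comparisons with young AL, without passing the test. A list has as many entries above its median as below it, so this does not set these members apart.

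Markers of cells that are known to carry these miRNAs were measured beside them. The summed level of endothelial miR-126a and miR-126b (3 entries, none at 0) was 4549 to 8099 CPM for young AL, 3832 to 7249 for old AL and 3981 to 6835 for old CR, and 0 of 3 entries were called in any comparison. For smooth muscle miR-143 and miR-145 (4 entries, none at 0) it was 5210 to 10142, 4943 to 10064 and 4916 to 8986 CPM, with 0 of 4 called. In old AL against young AL 1 of 3 endothelial and 3 of 4 smooth muscle entries had log2 fold changes above 0, with medians of -0.16 and 0.03. The part of vascular cells in the miR-221 and miR-222 values was not tested.

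Markers of leukocytes and fibroblasts were not called either. The leukocyte sum (6 entries of miR-142, miR-150 and miR-223, none at 0) was 115 to 165 CPM in young AL, 106 to 529 in old AL, the highest being replicate 8, and 98.6 to 208 in old CR. All 6 leukocyte entries had log2 fold changes above 0 in old AL against young AL, with a median of 0.36 and 2 at an edgeR unadjusted p under 0.05, and all 6 lay below 0 in old CR against old AL, with a median of -0.21. The part of leukocytes in the miR-221 and miR-222 values was not tested. For fibroblasts (4 entries of miR-199a and miR-214, 3 tested) the sum was 1016 to 1695, 1153 to 1628 and 1136 to 2276 CPM, with 1 entry at 0 in every old CR library. Entries of erythroid cells (miR-451 and miR-144, 4 in all) summed to at most 11.7 CPM with 0 called. Their median log2 fold change was 0.55 in old AL against young AL (3 of 4 above 0, 1 at an edgeR unadjusted p under 0.05) and -0.59 in old CR against old AL (0 of 4 above 0, 1 at an unadjusted p under 0.05).

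Markers of liver and nerve were higher in both old groups than in young AL by their medians. For liver miR-122 (2 entries) the median log2 fold change was 4.31 in old AL, with 0 called and 2 of 2 at an edgeR unadjusted p under 0.05, and 3.50 in old CR, with 2 of 2 upregulated. For the neural miR-9a and miR-124 (4 entries) it was 1.18 in old AL, with 0 called and 3 of 4 at an edgeR unadjusted p under 0.05, and 2.72 in old CR, with 4 of 4 upregulated. Over all entries 3.28% were called in old AL and 9.32% in old CR against young AL. The part of erythroid, liver or neural RNA in the miR-221 and miR-222 values was not tested.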

How the data were processed

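The authors trimmed reads with Cutadapt and Sickle, identified known and predicted miRNAs with miRDeep2, and deposited raw counts per entry and library, which the methods credit to featureCount. Per the submitters' notes, cutadapt 1.2.1, Bowtie2 2.4.0 and genome build Rnor_6.0 were used. The handling of reads that match several entries is not given in the sources used here. All columns matched a sample, so 0 were unused. Each library came from a separate rat.

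TMM factors were computed after removing entries under 10 counts over the libraries compared. Pairs of groups were fitted with edgeR 4.0.16 (R 4.3.3, robust quasi-likelihood, two-sided), with Benjamini-Hochberg adjustment over all entries tested, and DESeq2 1.42.0 was an alternative. Ratios took a prior count of 0.5 and exact permutation tests, and correlations of log2(CPM + 0.5) took 100000 resamples (SciPy 1.17.1). Both scripts were tested on simulated data. Libraries carried no molecular identifiers, so reads are not separate molecules. The Wilson intervals and the limit of a 0 count reflect counting error alone, while the edgeR intervals include the spread between libraries.

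The members, lists and tests were chosen with earlier results of these data known. Named entries were the members, up to 4 abundant or called entries of a list, and the 5 known miRNAs of highest Spearman rho with each 3p arm. Called entries of the myoblast list outside its most abundant were named after their values were seen. Alternatives covered scaling, filters, tool, shared counts and left-out libraries.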

Additional observations from a re-analysis of the deposited data

Results flagged for a closer look

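The log2 ratio of miR-221-3p to miR-222-3p in young AL replicate 4 was 1.67, far from the other young AL libraries, of which the nearest was 1.15 and the group median 1.08. It was the 1 outlying library among 15 groups of values examined for members and ratios, where chance flags about 1 in 20 groups. This library had 483 counts of miR-221-3p and 151 of miR-222-3p, and the second fewest assigned counts of the series (40785602). Without it the difference in this ratio was 0.01 for both old AL and old CR against young AL.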

How the results depend on the processing

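Over 9 pairs of a member (miR-222-5p left out) and a comparison, 237 alternatives gave 0 calls and 3 changes of sign, all of miR-221-5p in old CR against old AL, where leaving out 1 library gave -0.10 to 0.049 (above 0 without old AL replicate 7 or 12 or old CR replicate 18). miR-221-3p in old AL against young AL ranged from 0.24 to 0.70, with edgeR or DESeq2 adjusted p of 0.0959 to 0.429, and from 0.36 to 0.54 with 1 library left out. Library totals alone moved the median of all entries from 0.06 to 0.23 (old AL against young AL), from 0.08 to -0.05 (old CR against young AL) and from 0.01 to -0.27 (old CR against old AL), and gave 0.70 and -0.56 for miR-221-3p in the first and the last.

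Entries called in old AL against young AL, 24 in the fit reported, were 0 with library totals, 84 with DESeq2, 99 with DESeq2 without its filters, 37 with filterByExpr, 38 with a single fit over the 3 groups, 6 with shared counts counted once, 53 with known miRNAs only, 6 without young AL replicates 3 and 4, and 9 to 20 with 1 library left out (15 or fewer when any one of young AL libraries 2 to 5 or old AL libraries 9, 11 and 12 was left out). In old CR against young AL, 68 (30 higher, 38 lower) became 109 and 129 with DESeq2, 47 (16 higher, 31 lower) with library totals, 37 without young AL replicates 3 and 4, and 45 to 67 with 1 library left out (45 without old CR replicate 18). In old CR against old AL, 2 became 19 and 22 with DESeq2, 0 with upper-quartile factors, library totals, no robust estimation, shared counts counted once or known miRNAs only, and 0 to 3 with 1 library left out (0 for any one of old AL libraries 7, 8, 10, 11 and 12 or old CR libraries 14, 16, 17 and 18).

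The ratio of miR-222-3p to miR-222-5p turned with a prior count of 5 (0.64 in old AL against young AL and -0.19 in old CR against old AL) and without young AL replicates 1 and 2 (0.040, old AL against young AL), and with 1 library left out ran from -0.67 to -0.02, from -0.22 to 0.53 and from 0.15 to 0.84 in the 3 comparisons. That of miR-221-3p to miR-221-5p, old AL against young AL, was -0.11 without young AL replicates 1 and 2 and -0.042 to 0.15 with 1 library left out. That of miR-221-3p to miR-222-3p was 0.024 from summed counts (old CR against old AL), 0.022 (old AL) and 0.017 (old CR) against young AL without replicates 3 and 4, and with 1 library left out -0.12 to 0.012, -0.16 to 0.0069 and -0.069 to 0.051. None of these had an adjusted p of at most 0.05. Pearson r of miR-222-3p with miR-222-5p was 0.53 with library totals (permutation p = 0.0258), and the other correlations 0.97 and 0.92. The cause of these shifts was not tested.

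No paired analysis was possible because the groups consist of different rats. Depth limits miR-222-5p, with at most 4 counts in a library. The p-values of group comparisons set a difference against the spread between rats, with 6 rats in a group. Those of the correlations come from shuffling the 18 libraries.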
